A study of Mus musculus with 12 samples.

Results

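Methyl-CpG binding protein genes were followed in PYMT-R221A cells, a cultured mouse mammary tumour line, as the 9 rows of the deposited gene count table whose symbol was Mbd1, Mbd2, Mbd3, Mbd4, Mbd5, Mbd6, Zbtb38, Zbtb4 or Zbtb33, of 55335 genes in all. RNA was sequenced from 12 libraries in 4 groups of 3: cells given 40 µM KCC-07, a control that the design text calls wildtype cells, cells transfected with an siRNA against Mbd2 (siMBD2), and cells given a scramble siRNA. The series title calls KCC-07 an inhibitor of the MBD2 pathway. The labels name the replicates as biological but do not say whether they came from separate cultures, so p-values measure the spread between these libraries. They do not say whether the control received vehicle, and give no treatment time or siRNA sequence.

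Cytosine methylation at CpG dinucleotides is read by proteins with a methyl-CpG binding domain and by a group of zinc-finger proteins. MBD1 and MBD2 bind methylated DNA and recruit repressors, a SETDB1 histone methyltransferase complex for MBD1 and the NuRD remodelling and deacetylase complex for MBD2. MBD3 takes the place of MBD2 in other NuRD complexes and binds methylated DNA poorly in mammals. MBD4 is a DNA glycosylase that removes thymine left by deamination of methylcytosine, and MBD5 and MBD6 join the PR-DUB histone deubiquitinase complex and do not bind methylated DNA. Zbtb33, Zbtb4 and Zbtb38 encode Kaiso and its relatives, which read methylated CpG through zinc fingers.

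All 9 genes passed the filter on low counts, with the fewest reads for Zbtb4 (266 to 744 per library) and 450 or more in any library for the others. Levels are CPM, read counts divided by library size after scaling by the trimmed mean of M values (TMM), and library totals ran from 25831299 to 33956792 reads. None of the 9 has a near-identical copy elsewhere in the transcript set. Exons of Mbd4, Mbd5 and Zbtb33 overlap exons of Gm44206, Orc4 and Tmem255a on the opposite strand, and the strand setting of the counting is not given in the sources used here, so those 3 genes' values are uncertain. The epithelial markers Epcam, Cdh1, Krt8, Krt18 and Krt14 were present in all libraries, with a summed level of 9 markers of 1788 to 1957 CPM with KCC-07, 1588 to 1762 in control, 1725 to 1894 with siMBD2 and 1800 to 1892 with scramble. The rest of the 9 were lower. Cldn3 ran from 24.5 to 137 CPM, Cldn7 from 2.58 to 17.15 CPM and Krt5 from 1.70 to 31.7 CPM. Krt19 reached at most 3.445 CPM and was at 0.461 to 0.82 CPM in the siMBD2 and scramble libraries. The 5 fibroblast markers summed to 103 to 152 CPM with KCC-07, 173 to 205 in control, 136 to 153 with siMBD2 and 135 to 138 with scramble, nearly all from Pdgfra and Col1a1, with Dcn, Lum and Col3a1 under 0.5 CPM in each library. The 4 endothelial markers summed to at most 6.72 CPM (mainly Pecam1, with Cdh5 at 0 in all libraries). The 5 immune markers summed to 1.35 to 7.67 CPM with KCC-07, highest in replicate 3 through Cd68 (7.55 CPM), and to at most 1.61 CPM in the other groups, with Adgre1 at 0 in all libraries. The part of these markers in the results was not tested.

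RefSeq promoters (GRCm38.p6) were matched for 7 of the 9 genes, as 11 start sites, with none for Mbd1 or Mbd2. Mbd5, Mbd6 and Zbtb38 had alternative starts, each counted separately. The 250 bases before these starts held a median of 17 CpG, against 6 over 32851 promoters. The counts ran from 4 at one start of Mbd5 to 32 at one start of Mbd6, with 27 for Zbtb33 (more than 91.4% of promoters) and 13 for Zbtb4 (more than 68.5%). The 150 bases before the start of Zbtb33 (chrX:38189643-38189792, + strand) and of Zbtb4 (chr11:69765762-69765911, + strand) are shown because both encode zinc-finger readers, have a RefSeq start at the start of the annotated gene, and differ in CpG content. Each CpG is in capitals, and there are 22 and 9 of them.
Zbtb33: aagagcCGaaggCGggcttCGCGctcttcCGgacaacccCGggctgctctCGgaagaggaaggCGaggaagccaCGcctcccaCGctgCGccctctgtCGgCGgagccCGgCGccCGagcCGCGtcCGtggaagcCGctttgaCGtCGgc
Zbtb4: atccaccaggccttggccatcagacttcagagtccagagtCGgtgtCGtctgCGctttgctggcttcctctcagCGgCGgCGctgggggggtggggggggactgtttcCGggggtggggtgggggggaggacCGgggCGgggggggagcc
The Kaiso motif TCCTGCNA, searched on both strands, was in none of the 11 windows and in 4.03% of all promoters. A missing match says only that these letters are not in the window, and methylation was not measured.

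Mbd3 was the most abundant member per length of merged annotated exons and Mbd2 stood next to it in every group but siMBD2. In control cells Mbd3 averaged 48.9 ± 9.76 and Mbd2 23.4 ± 0.605 CPM per kb (mean ± SD, n = 3 each). Zbtb33 followed at 14.9 ± 0.599, Mbd1 at 13.3 ± 3.25 and Mbd6 at 8.88 ± 3.25 CPM per kb. Zbtb38 averaged 5.22 ± 0.179, Mbd4 4.47 ± 0.611, Mbd5 1.89 ± 0.424 and Zbtb4 1.74 ± 0.652 CPM per kb in control. The libraries of neighbouring genes in this order overlapped for Zbtb33 and Mbd1, for Mbd1 and Mbd6, and for Mbd5 and Zbtb4, so these do not have an order beyond their spread. In the siMBD2 libraries Mbd2 averaged 10.5 ± 0.840 CPM per kb and overlapped both Mbd1 (11.3 ± 1.13) and Mbd6 (9.72 ± 1.153), below Zbtb33 (12.7 ± 1.43). The order depended on the length used. With the longest coding transcript as the length, chosen after seeing the data, Mbd1 stood above Zbtb33 in control. By that length Mbd2 stood above Zbtb33 with siMBD2 (17.2 and 12.7 CPM per kb), without overlap. With KCC-07, Mbd3 and Mbd2 then overlapped (means of 48.9 and 38.4 CPM per kb). In KCC-07 replicate 3, Mbd2 was the higher of these (39.5 against 36.6 CPM per kb).

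**Figure D1:**
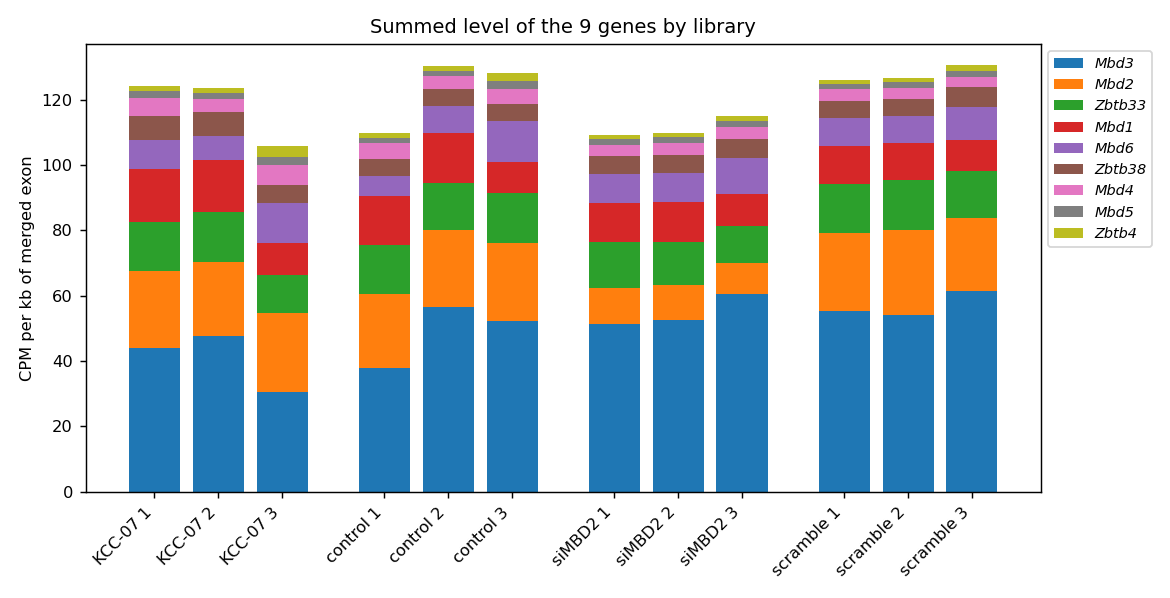
Summed level of the 9 genes in each library, in CPM per kb of merged exon (y axis), with 1 bar per library and each gene as a coloured segment. Mbd3 forms the largest segment in all 12 libraries, and the Mbd2 segment is 9.52 to 11.1 CPM per kb in siMBD2 libraries and 22.6 to 25.9 CPM per kb in the other 9.

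Mbd2 was the 1 member that passed the threshold with the Mbd2 siRNA, and it fell to under 0.5 of its level with scramble in each replicate. Mbd2 (GRCm38.p6, chromosome 18 from 70568189 to 70626131, + strand, 9 merged exons) had 35.7, 34.7 and 30.6 CPM in the siMBD2 libraries, against 75.8, 83.2 and 72.5 CPM in the scramble libraries. The groups did not overlap. Same-numbered libraries, siMBD2 over scramble, gave folds of 0.471, 0.417 and 0.422. The fitted fold was 0.436 with a 95% interval of 0.383 to 0.498 (log2 fold change -1.20, SE 0.087, quasi-likelihood F test of edgeR, adjusted p = 0.000197 by Benjamini-Hochberg over all genes tested). In the background, 0.0402% of 14935 tested genes passed in this comparison. Mbd2 made up 9.43 ± 1.013% of the summed level per length of the 9 genes with siMBD2 and 18.8 ± 1.58% with scramble (SD, n = 3 each). Because bulk RNA was measured, fewer cells with full Mbd2 and less Mbd2 in each cell cannot be told apart.

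Expression of the other 8 members did not pass the threshold with the Mbd2 siRNA. Mbd3, the paralogue of Mbd2 in NuRD, had 102, 105 and 120.3 CPM with siMBD2 and 110.2, 108 and 122 CPM with scramble. Its groups overlapped, and its fitted fold was 0.963 with a 95% interval of 0.742 to 1.25 (edgeR adjusted p = 1). The ratio of Mbd2 to Mbd3 per length was 0.193 ± 0.031 with siMBD2 and 0.424 ± 0.055 with scramble (SD, n = 3 each). The summed level of the 8 other members was 100.8 ± 4.03 with siMBD2 and 103.6 ± 3.78 CPM per kb with scramble.

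Zbtb33, which encodes Kaiso and lies on chromosome X from 38189793 to 38197046 (+ strand), was the 1 further member whose siRNA groups did not overlap. It had 71.2, 66.9 and 57.0 CPM with siMBD2, against 77.5, 77.8 and 72.6 CPM with scramble. All 3 siMBD2 libraries were below all 3 scramble libraries, and same-numbered pairs gave folds of 0.918, 0.860 and 0.784. The fitted fold was 0.855, with a 95% interval of 0.719 to 1.02 and edgeR adjusted p = 1. It passed in 1 of 14 alternatives, the fit of the 6 siRNA libraries alone with the replicate block (adjusted p = 0.00725). That fit called 19.8% of the genes it tested. Without overlap of libraries were 2 of the 9 members, Mbd2 and Zbtb33, against 22% of all tested genes.

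The remaining 6 members had fitted folds of 0.978 to 1.09 with siMBD2 over scramble, each with edgeR adjusted p = 1. Mbd1 had 79.7, 81.0 and 67.3 CPM with siMBD2 and 77.4, 77.2 and 65.2 CPM with scramble, a fold of 1.04 (95% interval 0.759 to 1.42). Mbd4 had 17.6, 20.2 and 18.4 CPM with siMBD2 and 19.5, 17.8 and 16.5 CPM with scramble, a fold of 1.05 (0.820 to 1.33). Mbd5 had 36.1, 34.2 and 34.9 CPM with siMBD2 and 32.5, 33.3 and 36.3 CPM with scramble, a fold of 1.03 (0.824 to 1.29). These 3 genes had overlapping groups, as did the next 3. Mbd6 had 40.2, 40.4 and 49.2 CPM with siMBD2 and 38.8, 36.3 and 44.4 CPM with scramble, a fold of 1.09 (0.757 to 1.56). Zbtb38 had 62.0, 62.7 and 67.8 CPM with siMBD2 and 58.6, 61.3 and 70.1 CPM with scramble, a fold of 1.014 (0.858 to 1.20). Zbtb4 had 10.3, 9.95 and 13.2 CPM with siMBD2 and 8.92, 10.5 and 14.8 CPM with scramble, a fold of 0.978 (0.575 to 1.66). The interval was widest for Zbtb4, and the data set neither its change nor that of Mbd6 to within 1.5-fold. The median log2 fold change was 0.02 over the 9 members and 0.00 over all tested genes.

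**Figure D2:**
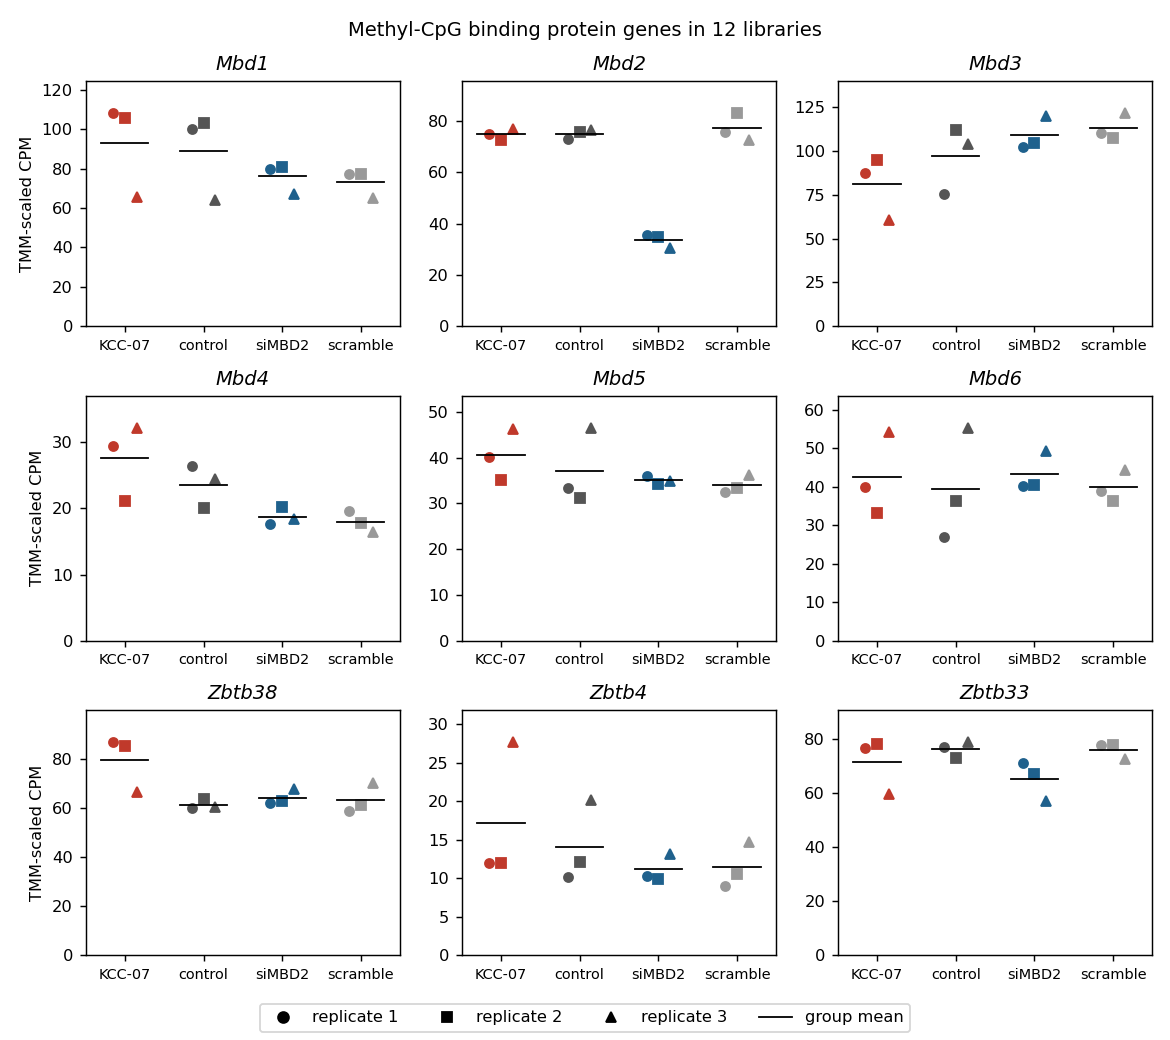
TMM-scaled CPM of each gene (y axis, from 0) in KCC-07, control, siMBD2 and scramble libraries (x axis). Symbols mark replicates and black lines are group means. The siMBD2 libraries of Mbd2 lie between 30.6 and 35.7 CPM, below all others, and the KCC-07 libraries of Zbtb38 (66.6 to 86.8 CPM) lie above the control libraries (59.9 to 63.7 CPM).

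None of the 9 members passed the threshold with KCC-07 in the edgeR fit, in which 5.65% of all genes did. Zbtb38 alone had an unadjusted p under 0.05, as did 25.1% of all genes, and DESeq2 called it in a test that called 12.5% of all genes. Mbd2 itself had 75.1, 72.8 and 77.1 CPM in the KCC-07 libraries, against 72.9, 75.9 and 76.5 CPM in control. The groups overlapped, and the fitted fold was 0.998, with a 95% interval of 0.878 to 1.14 (edgeR adjusted p = 0.991). The interval leaves out a change in Mbd2 RNA the size of the knockdown. MBD2 protein and its binding to DNA were not measured in these libraries. The difference between the effect of the compound and that of the siRNA on Mbd2 was 1.19 on the log2 scale (SE 0.121, edgeR adjusted p = 0.00539), where 0.656% of all genes passed.

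Zbtb38, a zinc-finger reader of the Kaiso group on chromosome 9 from 96682770 to 96752831, stood highest relative to control. It had 86.8, 85.2 and 66.6 CPM in the KCC-07 libraries, against 59.9, 63.7 and 60.2 CPM in control. All KCC-07 libraries were above all control libraries, with KCC-07 replicate 3 nearest to them, and the same-numbered pairs gave folds of 1.45, 1.34 and 1.11. The fitted fold was 1.30, with a 95% interval of 1.10 to 1.53 (log2 fold change 0.38, SE 0.110, edgeR adjusted p = 0.0665). With the replicate number as a block within each arm, compound or siRNA, Zbtb38 rose (log2 fold change 0.37, edgeR adjusted p = 0.0189). That fit called 21.8% of all genes. DESeq2 gave adjusted p = 0.0193. Without KCC-07 replicate 3 the log2 fold change was 0.49 (edgeR adjusted p = 0.0123, with 5.09% of all genes called). Leaving out any other single KCC-07 or control library left Zbtb38 uncalled (edgeR adjusted p = 0.0719 to 0.159). Without all libraries of batch 3 its log2 fold change was 0.48 (edgeR adjusted p = 0.00144, with 25.6% of all genes called). With the 6 libraries of the comparison alone it did not pass (edgeR adjusted p = 0.287), nor did it with the block on those 6 (log2 fold change 0.37, edgeR adjusted p = 0.119). In KCC-07 replicate 3, mitochondrially encoded transcripts were 3.90% of counts, against 1.82% and 1.55% in the other KCC-07 libraries; its part in the Zbtb38 value was not tested. In the siRNA libraries Zbtb38 had 62.0 to 67.8 CPM with siMBD2 and 58.6 to 70.1 CPM with scramble. The difference of the compound and siRNA effects on it was 0.36 (edgeR adjusted p = 0.324), and 0.42 without batch 3 (edgeR adjusted p = 0.0217, with 10.6% of all genes called). Zbtb38 was the 1 of 9 members whose KCC-07 and control libraries did not overlap, against 22.9% of all genes.

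Mbd3, on chromosome 10 from 80392539 to 80399550 (- strand), had the lowest fitted fold with KCC-07 and was variable in both groups. It had 87.8, 94.9 and 60.9 CPM with KCC-07 and 75.3, 112 and 104 CPM in control. The low values were KCC-07 replicate 3 and control replicate 1, and the same-numbered pairs went both ways, with folds of 1.17, 0.845 and 0.586. The fitted fold was 0.836, with a 95% interval of 0.644 to 1.09 (edgeR adjusted p = 0.373). With Mbd2 level, the ratio of Mbd2 to Mbd3 per length was 0.529, 0.474 and 0.783 with KCC-07 and 0.598, 0.418 and 0.456 in control, so the groups overlapped.

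Mbd4, the repair glycosylase gene on chromosome 6 from 115840697 to 115853371 (- strand), had 29.4, 21.1 and 32.2 CPM with KCC-07 and 26.4, 20.1 and 24.4 CPM in control. Each pair was higher with KCC-07, with folds of 1.12, 1.06 and 1.32, while the groups overlapped and the fitted fold was 1.17 (95% interval 0.919 to 1.49, edgeR adjusted p = 0.401). Mbd1 was also higher in each pair (1.08, 1.02 and 1.03), at a fitted fold of 1.05 (0.767 to 1.43). Mbd5, on chromosome 2 from 48949508 to 49325405 (+ strand), had 40.2, 35.2 and 46.2 CPM with KCC-07 and 33.4, 31.2 and 46.6 CPM in control, a fold of 1.09 (0.875 to 1.37). Mbd6, on chromosome 10 from 127281956 to 127289018 (- strand), had 39.95, 33.2 and 54.4 CPM with KCC-07 and 27.0, 36.3 and 55.4 CPM in control, a fold of 1.07 (0.748 to 1.54). Both genes were highest in replicate 3 of each group, and the groups overlapped. Zbtb33 had 76.8, 78.0 and 59.5 CPM with KCC-07 and 76.9, 72.7 and 78.7 CPM in control, a fold of 0.938 (0.789 to 1.12). Zbtb4 had a fold of 1.22 (0.721 to 2.06), with overlapping groups. The median log2 fold change of the 9 members was 0.10, against 0.02 over all genes.

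**Figure D3:**
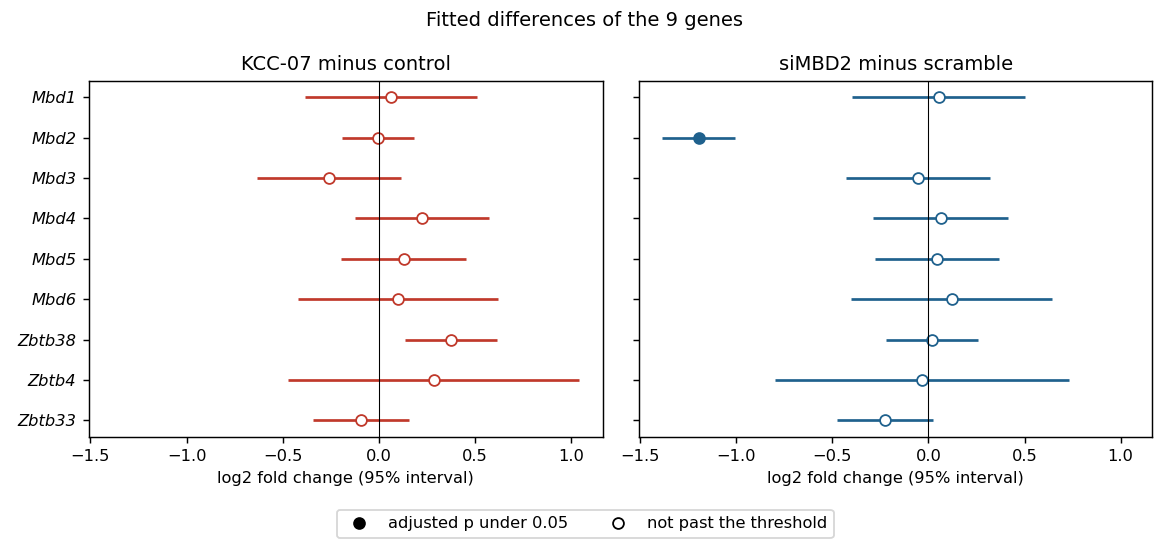
Fitted log2 fold change (x axis) of each of the 9 genes for KCC-07 minus control (left) and siMBD2 minus scramble (right). Lines are 95% intervals, and filled points passed the edgeR threshold. Mbd2 with the siRNA (-1.20) is the only filled point, and Zbtb38 with KCC-07 (0.38) has an interval from 0.14 to 0.62.

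The scramble siRNA against control sets cells given a non-targeting siRNA against the control of the compound, and 0 of the 9 members passed in the edgeR fit, where 8.79% of all genes did. DESeq2 also called 0 (15.4% of all genes). Mbd4 alone had an unadjusted p under 0.05, as did 27.2% of all genes. It had 19.5, 17.8 and 16.5 CPM with scramble and 26.4, 20.1 and 24.4 CPM in control. The groups did not overlap (as for 33.2% of all genes), the pairs gave folds of 0.742, 0.889 and 0.675, and the fitted fold was 0.761 (95% interval 0.597 to 0.969, edgeR adjusted p = 0.137). Mbd1, on chromosome 18 from 74267605 to 74282732 (+ strand), had 77.4, 77.2 and 65.2 CPM with scramble and 100.2, 103 and 64.0 CPM in control. Its replicates 1 and 2 were lower with scramble, and replicate 3 was level (folds of 0.773, 0.748 and 1.02), so that its log2 fold change was -0.28 (edgeR adjusted p = 0.399) and became -0.39 without batch 3 (edgeR adjusted p = 0.000947), in a fit that called 41.1% of all genes. Control libraries are shared between this comparison and KCC-07 against control. The labels give replicate 3 of all 4 groups the same batch tag, while its library name carries a 4 with KCC-07 and control and a 3 with siMBD2 and scramble.

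Several members differed more between replicates than between treatments, and did so in the same direction in KCC-07 and control. Mbd1 stood at 65.7 CPM in KCC-07 replicate 3, against 108 and 106 CPM in replicates 1 and 2, and at 64.0 CPM in control replicate 3, against 100.2 and 103 CPM. Replicate 3 over the mean of replicates 1 and 2 gave folds of 0.614 with KCC-07, 0.630 in control, 0.838 with siMBD2 and 0.844 with scramble. Zbtb4, on chromosome 11 from 69765912 to 69784023 (+ strand), went the other way, with 27.7 CPM in KCC-07 replicate 3 and 11.98 and 11.96 CPM in the others, and 20.1 CPM in control replicate 3 with 10.1 and 12.1 CPM in the others. Its folds were 2.31 with KCC-07, 1.81 in control, 1.30 with siMBD2 and 1.52 with scramble. Mbd6 was higher in replicate 3 in all 4 groups, with folds of 1.49 with KCC-07, 1.75 in control, 1.22 with siMBD2 and 1.18 with scramble. Mbd2 stayed within 0.869 to 1.04 of its other replicates in all 4 groups. A difference of 1.5-fold or more in replicate 3 was seen for 3 of 9 members with KCC-07 and 3 of 9 in control, against 29.1% and 22.7% of all genes, and for 0 of 9 with siMBD2 and 1 of 9 with scramble, against 13.1% and 12.2%. These are descriptions of the labelled batch 3, with no test. The mitochondrial share of counts was also higher in replicate 3, at 3.90% with KCC-07, 2.81% in control, 2.70% with siMBD2 and 3.01% with scramble, and its part in these values was not tested.

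**Figure D4:**
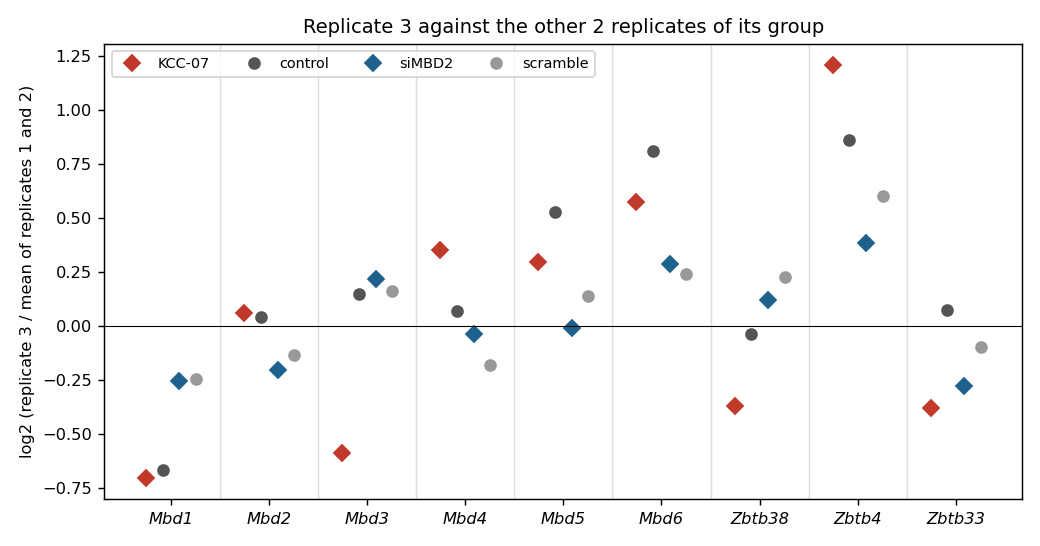
Log2 ratio of replicate 3 to the mean of replicates 1 and 2 (y axis) for each gene (x axis) in the 4 groups. Mbd1 is below 0 and Zbtb4 and Mbd6 are above 0 in all 4 groups, from -0.70 for Mbd1 to 1.21 for Zbtb4, both with KCC-07.

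The proteins that work with the members were followed as 61 genes in 6 lists, of which 58 were tested. The lists held other genes with an MBD or SRA domain, SETDB1 complex genes (MBD1) and NuRD genes (MBD2 and MBD3). They also held base excision and mismatch repair genes (MBD4), PR-DUB genes (MBD5 and MBD6), and corepressors of the zinc-finger readers. With KCC-07, 1 rose and 2 fell of the 58, where 5.65% of all genes were called, 12 had an unadjusted p under 0.05, as did 25.1% of all genes, and the median log2 fold change was -0.03, against 0.02 over all genes tested. With siMBD2, 0 passed in edgeR or in DESeq2, which called 0.562% of all genes, and 4 had an unadjusted p under 0.05, as did 5.26% of all genes, with a median of -0.04 against 0.00. For scramble over the same control libraries, 1 rose (Msh6) and 2 fell (Atf7ip and Zmynd8) where 8.79% of all genes were called, 18 had an unadjusted p under 0.05, as did 27.2% of all genes, and the median was 0.05 against -0.03. These counts are near the shares over all genes or below them. With the replicate block 3 rose and 9 fell with KCC-07 (21.8% of all genes were called), and without batch 3, 8 rose and 11 fell (25.6%). With the 6 libraries of the comparison alone, 0 passed with KCC-07, with or without the block, in fits that called 2.84% and 0.00688% of all genes. With siMBD2 the libraries alone gave 1, Ctbp2, where 1.26% of all genes were called, and 14 with the block (13 of them lower), where 19.8% were.

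Atf7ip, which encodes MCAF1, the cofactor that links MBD1 to SETDB1, rose to 156, 139.5 and 185 CPM with KCC-07, against 108, 116 and 118 CPM in control. All KCC-07 libraries were above all control libraries (log2 fold change 0.49, SE 0.10, edgeR adjusted p = 0.0183). It did not pass without control replicate 1 or 2 (edgeR adjusted p = 0.0628 and 0.0557), and it overlaps Gm44140 on the opposite strand and is uncertain. With scramble, against the same control libraries, Atf7ip fell (log2 fold change -0.55, SE 0.101, edgeR adjusted p = 0.00943). Cdk2ap1, a NuRD-associated subunit gene, fell to 136, 157 and 123 CPM with KCC-07, against 187, 173 and 181 CPM in control (log2 fold change -0.38, SE 0.094, edgeR adjusted p = 0.0389). It has a near-identical copy, Gm12184, and lost its call on leaving out either of control replicates 1 and 2, or of KCC-07 replicates 1 and 3 (up to edgeR adjusted p = 0.0949). Ctbp1, a corepressor gene, fell to 198, 209 and 177 CPM with KCC-07, against 224, 254 and 258 CPM in control (log2 fold change -0.33, SE 0.084, edgeR adjusted p = 0.0419). This call was lost on leaving out control replicate 2, or either of KCC-07 replicates 1 and 3 (up to edgeR adjusted p = 0.118). Cdk2ap1 and Ctbp1 also did not pass with no filter on low counts (edgeR adjusted p = 0.0601 and 0.0928).

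The NuRD list had 13 of its 16 genes below 0 with KCC-07, with a median log2 fold change of -0.17, and 11 of 16 with siMBD2, with a median of -0.06. Of all genes, 48.2% lay below 0 with KCC-07 and 49% with siMBD2. In scramble against control 8 of the 16 lay below 0, with a median of 0.00, against 53.1% of all genes. Hdac2, a NuRD deacetylase gene, had 116, 122 and 116 CPM with KCC-07 and 147, 138 and 138 CPM in control (log2 fold change -0.26, SE 0.069, edgeR adjusted p = 0.0511). With the block its edgeR adjusted p was 0.0300, in a fit that called 21.8% of all genes. Hdac2 passed in 5 of 14 alternatives. With the libraries of the comparison alone it did not pass, without or with the block (edgeR adjusted p = 0.3285 and 0.1955). With siMBD2 it had 128, 123 and 119 CPM, against 137, 137 and 141 CPM with scramble (log2 fold change -0.16, edgeR adjusted p = 0.866). The repair genes of the MBD4 list had a median of -0.05 with KCC-07, and Ung, a uracil glycosylase gene, stood at 35.4, 35.9 and 17.8 CPM with KCC-07 and 47.1, 46.0 and 38.8 CPM in control (log2 fold change -0.56, SE 0.210, edgeR adjusted p = 0.126). Ung passed in 2 of 14 alternatives. These were the block (log2 fold change -0.62, edgeR adjusted p = 0.0171) and the fit without batch 3 (log2 fold change -0.38, edgeR adjusted p = 0.0045). They called 21.8% and 25.6% of all genes. With the libraries of the comparison alone Ung did not pass, without or with the block (edgeR adjusted p = 0.379 and 0.0878). Its lowest library was KCC-07 replicate 3, without which its log2 fold change was -0.30 (edgeR adjusted p = 0.1295). In the PR-DUB list 7 of 8 tested genes lay above 0 with KCC-07, with a median of 0.10, as did 51.8% of all genes. In scramble against the same control libraries 8 of 8 lay above 0, with a median of 0.31, as did 46.9% of all genes. None of the 8 passed in either comparison. With siMBD2 the smallest unadjusted p in the lists was that of the corepressor gene Ctbp2, at 51.3, 52.2 and 51.3 CPM, against 61.2, 65.8 and 65.5 CPM with scramble (log2 fold change -0.31, edgeR adjusted p = 0.465).

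The genes whose log2 CPM was most like that of Mbd2 over the 12 libraries were Selenot (r = 0.972), Mdh1 (0.958), Smap1 (0.946), Rnf26 (0.943) and Aurkb (0.914). Of these, Mdh1, which encodes cytosolic malate dehydrogenase, averaged 163 ± 1.23 CPM with siMBD2 and 307 ± 16.6 CPM with scramble (log2 fold change -0.91, edgeR adjusted p = 0.000577), and Selenot averaged 136 ± 11.95 CPM with siMBD2 and 200.9 ± 4.19 CPM with scramble (log2 fold change -0.56, edgeR adjusted p = 0.0496; SD, n = 3 each). Smap1, Rnf26 and Aurkb had log2 fold changes of -0.51, -0.41 and -0.43 and did not pass. Mdh1 overlaps Wdpcp on the opposite strand, Smap1 overlaps B3gat2 and Rnf26 overlaps Mfrp, so their values are uncertain. The genes likest to Mbd2 were picked for their likeness in the same libraries, so their values are no independent support. For Mbd1 the likest genes were Tnfaip2 (r = 0.995) and Saa3 (0.990), an acute-phase gene, and for Zbtb38 they were Uso1 (0.927) and Jund (0.897). For Mbd3 they were Actn4 and Tln2 (both 0.970), for Mbd4 Prickle2 (0.945) and Lin37 (0.939), for Mbd5 Zscan26 and Pik3ca (both 0.958), for Mbd6 Gigyf1 (0.965) and Becn1 (0.950), for Zbtb4 Pitpnm3 and Marf1 (both 0.964) and for Zbtb33 Bend5 (0.935) and Eri1 (0.923). Tnfaip2, Jund, Actn4, Lin37, Zscan26, Becn1 and Marf1 also overlap genes on the opposite strand and are uncertain. These r values are Pearson correlations across 12 libraries that share 4 groups and 3 batches, and are given as a description only.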

How the data were processed

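The labels give polyA RNA as the molecule of all 12 libraries and a NovaSeq X as the sequencer. The deposited table gives raw read counts of 55335 genes that the authors did not normalize, and columns were assigned to libraries by name. DRAGEN, DESeq2 1.44.0, mm10 and GRCm38.p6 appear in the submitters' processing notes without a role; annotation, multi-mapping and strand settings are not given in the sources used here. Counts were fitted in R 4.3.3 with edgeR 4.0.16 (glmQLFit and glmQLFTest, TMM, filterByExpr with a minimum count of 10 and total of 15, 1 mean per group over all 12 libraries), which left 14935 genes. A gene passed at a Benjamini-Hochberg adjusted p under 0.05 over all genes. SE is the absolute log2 fold change over the square root of F, and 95% intervals use the t distribution with the total degrees of freedom of the fit. The code was tested on simulated data. The same results were recomputed with the size factors of DESeq2 in place of TMM, without a filter or with one asking for 1 CPM in 3 libraries, with the replicate number as a block, on only the compared groups with and without a block, with the DESeq2 1.42.0 Wald test, and on leaving out single replicates or all of batch 3. In the fits of all 12 libraries the block had separate terms for KCC-07 with control and for siMBD2 with scramble. For scramble against control its terms were shared by all groups. Same-numbered libraries share a batch tag in the labels and were taken as pairs on that ground. Across genes, their deviations from the group means correlated with r = 0.268, 0.284 and 0.484 (KCC-07 and control), 0.092, 0.153 and 0.421 (siMBD2 and scramble) and 0.073, 0.021 and 0.126 (scramble and control). Replicates 1 and 2 correlated as well crosswise (0.173 and 0.295, 0.18 and 0.214, 0.011 and 0.1, for the same comparisons). By these correlations only replicate 3 was set apart, least clearly in scramble and control. Members, partner lists and tests were chosen with earlier results of these data known. All 9 members were named, with up to 3 genes of each partner list by smallest unadjusted p with KCC-07 and with siMBD2. Partner genes called for scramble against control were also named. So were the genes of highest Pearson r (log2 CPM, prior count 2, with 5 for Mbd2 and 2 for the others). An exact permutation test of 3 against 3 cannot go below p = 0.1 and was not used. No libraries were identical. The smallest chi-square of a replicate pair over its degrees of freedom was 3.43, and it was 29.5 for control replicates 1 and 2. Exon lengths and overlaps come from GENCODE on GRCm38.p6 and promoters from RefSeq.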

Additional observations from a re-analysis of the deposited data

How the results depend on the processing

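Of 540 refitted log2 fold changes of the 9 genes (36 values, 14 or 18 alternatives each), 533 kept their side of the threshold, 7 passed where the main value did not, and 0 called values reversed or were lost. Of the 36 main values, only those of Mbd2 with siMBD2 and in the difference of the effects were called. Most of the 533 are therefore uncalled values that stayed uncalled. Fold changes near 0 could change sign, as for the difference of the effects on Mbd6 in 7 of 18 alternatives. The fall of Mbd2 with siMBD2 stayed past the threshold in all 14 alternatives, with log2 fold changes of -1.24 to -1.13 (-1.24 to -1.13 with each replicate left out). With KCC-07 the number of members past it was 0, and it was 1 (Zbtb38) with the replicate block, without the libraries of batch 3 and with DESeq2, and 0 to 1 with each replicate left out. With siMBD2 it was 1 (Mbd2), and 2 with the libraries of the comparison alone with the block. For the difference of the effects it was 1, and 2 without batch 3, and for scramble against control 0, and 1 without batch 3. The replicate block changed no other call of a member. Counts over all genes moved by over 1.5 times. With KCC-07 844 genes passed, 3251 with the block, 3832 without batch 3, 1871 with DESeq2, and 1 and 412 with the 6 libraries alone without and with the block; with siMBD2 6 passed, and 112, 162, 84, 177 and 2790 in the same settings. The cause was not tested. The ratio of Mbd2 to Mbd3 per length was 0.265 with siMBD2 and 0.583 with scramble when the longest coding transcript was the length. In the main fit Zbtb4 has the widest intervals. Its SE with siMBD2 was 0.351 there and 0.124 with the replicate block.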

Other observations

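The table also lists genes that are relatives of Mbd3 and are known from testis. Mbd3l1 had 2 reads in 1 of the 12 libraries, and Mbd3l2 had 0 reads in all 12, which allows up to 0.0884 to 0.116 CPM per library at 3 counts. The limit covers counting error only.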
